A study of Mus musculus with 8 samples.

Results

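The actins and the proteins that set and cap the length of the thin filament were examined as a group of 10 genes in aged fast-twitch muscle. The members were chosen by gene symbol and comprised the sarcomeric actins *Acta1* and *Actc1*, the smooth muscle actin *Acta2*, the cytoplasmic actins *Actb* and *Actg1*, nebulin (*Neb*), the leiomodins *Lmod2* and *Lmod3*, and the tropomodulins *Tmod1* and *Tmod4*. All 10 were found among the 16686 genes of the deposited table, and all 10 passed the filter on low counts that left 12542 genes for testing. RNA was taken from the tibialis anterior (TA) muscle, a fast-twitch muscle of the lower hindlimb, of 8 male mice on the FVBN background at 22 months of age. WTOld mice (n = 4) carried intact *Mybpc2*, the gene of fast myosin binding protein-C, and in C2-/-Old mice (n = 4) exons 2 to 22 of this gene had been replaced by a Neo cassette between LoxP sites. The replacement is constitutive and not limited to muscle, each library came from 1 mouse, and the question was how RNA levels differ between aged muscle with and without fast myosin binding protein-C.

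Each thin filament of the sarcomere is a polymer of actin along which tropomyosin, troponin and, in skeletal muscle, nebulin are bound. Tropomodulins cap the pointed end, towards the middle of the sarcomere, and limit the addition of actin there, whereas leiomodins act at or near the same end and promote the nucleation or elongation of filaments. Adult skeletal muscle uses *Acta1* almost exclusively, while *Actc1*, the actin of the heart, is expressed in developing and regenerating skeletal muscle. Myosin binding protein-C lies on the thick filament and can also contact actin.

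Total counts per mouse lay between 25425993 and 29747692, so that 3 counts, taken as the smallest level that can be shown, corresponded to 0.101 to 0.118 CPM (counts scaled to library size). These limits cover counting error only. *Mybpc2* was at 4963 to 7389 CPM in WTOld and at 3.85, 4.02, 4.35 and 38.3 CPM in C2-/-Old, which fits the labels of all 8 libraries. Fast muscle markers summed to between 150800 and 211600 CPM and slow muscle markers to between 11.2 and 49.9 CPM in all mice, with *Atp2a1*, *Myh4* and *Ckm* leading the fast list. WTOld replicate 2 stood apart in several measures given below beside the results they touch, as did WTOld replicate 4 and C2-/-Old replicate 2 in immediate early genes. The immediate early genes summed to 542.5, 1227 and 762.1 CPM in these 3 mice and to between 34.9 and 83.1 CPM in the other 5. Bulk RNA cannot tell fewer cells of a type from less RNA per cell.

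Because the actins are close relatives, their coding sequences are shown first, since they decide whether reads can be told apart. The first 90 coding bases of 3 actins follow (GENCODE vM21, GRCm38, coding strand, 5′ to 3′), with capitals in *Actc1* and *Acta2* at every base that differs from *Acta1*.
Acta1: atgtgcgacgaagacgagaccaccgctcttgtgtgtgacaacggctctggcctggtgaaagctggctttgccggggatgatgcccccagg
Actc1: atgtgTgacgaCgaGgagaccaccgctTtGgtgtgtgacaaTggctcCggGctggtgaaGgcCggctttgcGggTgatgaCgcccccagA
Acta2: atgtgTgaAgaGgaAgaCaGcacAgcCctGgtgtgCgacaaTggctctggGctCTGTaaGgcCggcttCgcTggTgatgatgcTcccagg
In this stretch, *Actc1* differed from *Acta1* at 14 bases and *Acta2* at 22. Over the whole coding sequence of 1131 bases, *Acta1* and *Actc1* were identical at 86.3% of bases and differed at 155, with no identical run longer than 29 bases. *Acta1* and *Acta2* were identical at 85.4%, again with no run above 29 bases. The cytoplasmic actins *Actb* and *Actg1* were closer, at 88.6% with a longest run of 62 bases. No stretch of 100 bases was shared between any pair of the 5 coding sequences, and none of the 100-base windows of the *Acta1*, *Actc1* and *Acta2* transcripts occurred in the transcript of another gene. For *Actg1*, however, 946 of 1853 windows (51.1%) also occurred in transcripts of 6 other genes, among them the pseudogene *Actg-ps1*, so that part of its counts may belong to them.

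The regulatory sequence of the sarcomeric actins is shown because both genes hold the same kind of element near a RefSeq start and yet lie at opposite ends of the order of levels below. The 100 bases before the start in the RefSeq promoter table are given for *Acta1* (chr8:123894776-123894875, minus strand) and *Actc1* (chr2:114052876-114052975, minus strand), on GRCm38.p6, with the CArG box in capitals. For *Acta1* this start is the end of the interval deposited for the gene, whereas for *Actc1* it lies within that interval, which reaches to 114053863, so that the *Actc1* stretch is upstream of this RefSeq start but not of the whole interval.
Acta1: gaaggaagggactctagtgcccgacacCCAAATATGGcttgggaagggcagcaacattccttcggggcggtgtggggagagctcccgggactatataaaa
Actc1: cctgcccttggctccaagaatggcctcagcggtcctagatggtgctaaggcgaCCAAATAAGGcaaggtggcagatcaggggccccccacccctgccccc
The CArG box is the element bound by serum response factor (SRF), read here as CC, then 6 letters that are each A or T, then GG, which covers both strands. It began 73 bases before the RefSeq start of *Acta1*, 47 before that of *Actc1* and 90 before that of *Actg1*. A promoter of 300 bases (250 before and 50 after the start) was at hand for 7 members, and 3 of these 7 held the element, against 1.63% of all 32851 promoters of the same length. The windows of *Acta2*, *Lmod2*, *Tmod1* and *Tmod4* did not hold these exact letters. Near matches, such as ccctatatgg in the *Acta2* window and ctaaatatgg in that of *Lmod2*, were not counted. Promoters of *Actb*, *Neb* and *Lmod3* were not analysed here. A match of letters is a description and not a bound site.

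Levels can be compared between genes only per length, and the deposited TPM (transcript abundance scaled by length and depth) were used for this order. *Acta1* led with a mean of 70840 TPM over the 8 mice (range 65370 to 75800), 139-fold above the next gene, *Tmod4*, at 508 TPM (438 to 593.5). *Neb* followed at 396.5 TPM (186 to 551.2), then *Actb* at 279.7 TPM (231 to 339.6), *Tmod1* at 277.3 TPM (224.8 to 331) and *Actg1* at 225.3 TPM (165 to 275.6). The order ended with *Lmod3* at 119.6 TPM (84.4 to 149.9), *Lmod2* at 73.7 TPM (55.1 to 158.4), *Acta2* at 53.98 TPM (37.8 to 78.6) and *Actc1* at 36.8 TPM (12.3 to 64.7). Of the 9 pairs of neighbours in this order, the ranges of only 2 did not overlap, *Acta1* with *Tmod4* and *Actg1* with *Lmod3*, a step of 1.88-fold, and the ranges of the other 7 pairs overlapped. Within single mice, the gene placed higher also had the higher TPM in 7 of 8 mice for 5 of these pairs, in 6 mice for *Neb* over *Actb* and in 5 mice for *Actb* over *Tmod1*. Counts per kilobase of the annotated transcript gave every member the same place in the order.

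**Figure D1:**
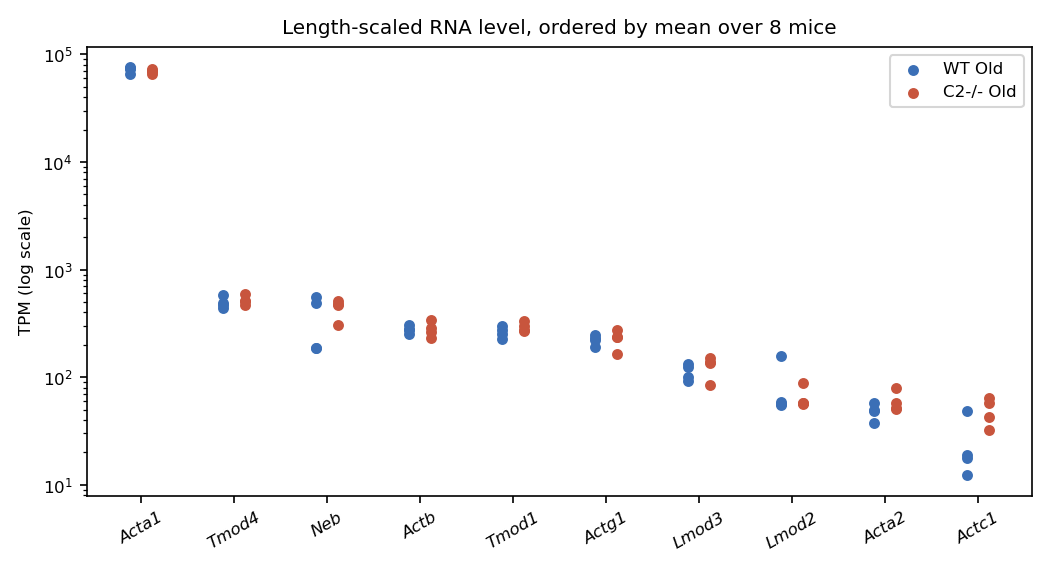
TPM (log axis) of each of the 10 genes in each of the 8 TA muscles, ordered by the mean, with WTOld in blue and C2-/-Old in red. *Acta1* lies 139-fold above *Tmod4*, while most neighbouring genes overlap and the 4 WTOld values of *Actc1* extend down to 12.3 TPM.

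Between genotypes, 6 of the 10 genes had a higher and 4 a lower estimate in C2-/-Old, and the median of their log2 fold changes was 0.05, against −0.02 over all tested genes, of which 45.7% were higher. None of the 10 passed the call of an adjusted p under 0.05 above 1.5-fold (quasi-likelihood test of edgeR, p-values adjusted by Benjamini-Hochberg), a call made for 0.0319% of all tested genes. The count of members was also 0 with limma-voom and with DESeq2. Before adjustment, 1 of 10, *Actc1*, had a p under 0.05, in the direction higher in C2-/-Old, against 5.29% of all genes in either direction, 3.38% higher and 1.91% lower. For 0 of 10 members did the CPM of the genotypes separate without overlap, against 3.38% of all genes. An absolute log2 fold change under 0.2 was found for 6 members and for 65.4% of all genes.

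**Figure D2:**
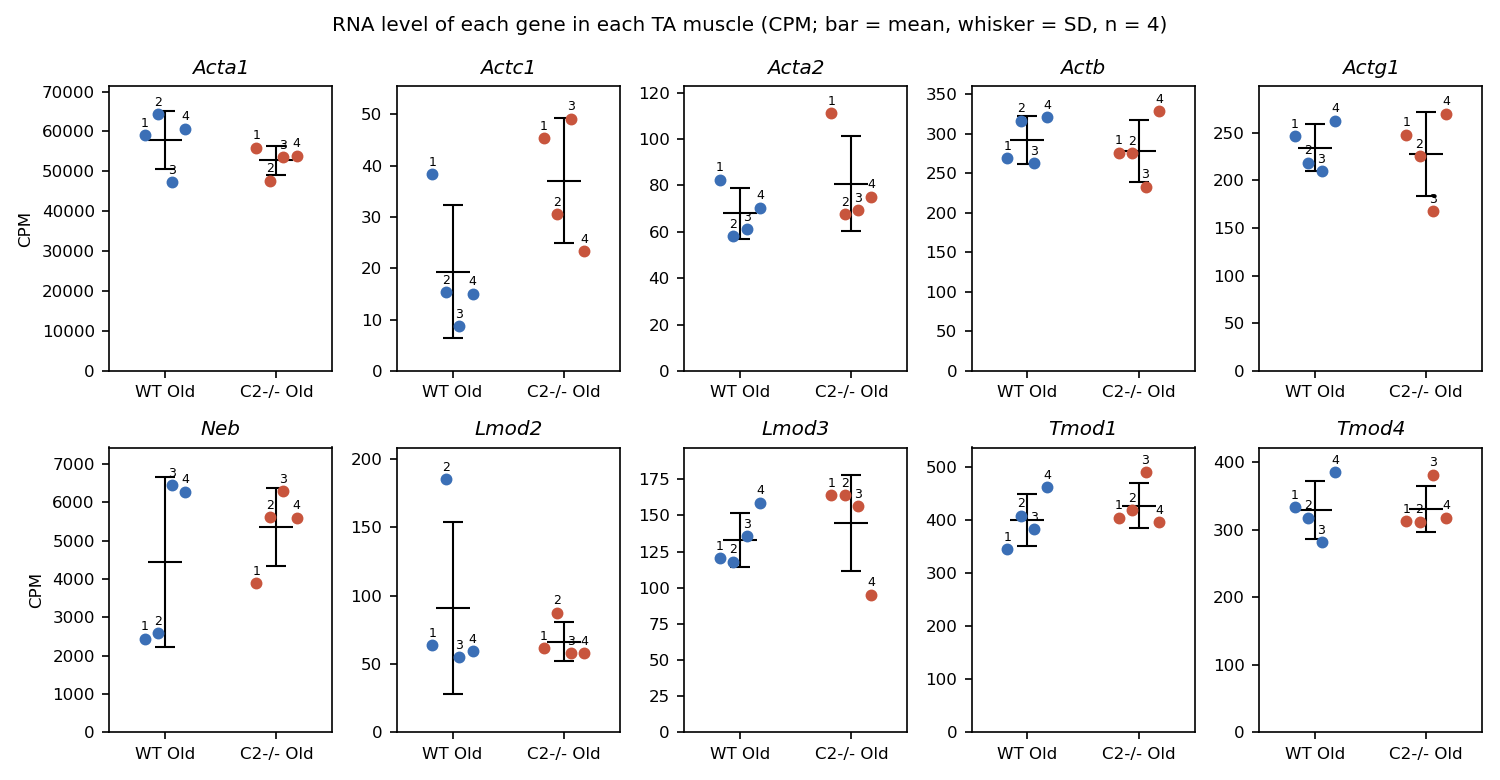
CPM (scaled by TMM factors) of the 10 genes in each TA muscle, with 1 panel per gene, points numbered by replicate, horizontal bars at the mean and whiskers of 1 SD (n = 4 mice per genotype). The genotypes overlap in all 10 panels, with WTOld replicates 1 and 2 low for *Neb* and WTOld replicate 2 high for *Lmod2*.

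*Acta1* (gene ID 11459, chromosome 8, 123890942 to 123894775, minus strand, 7 exons) encodes skeletal alpha-actin and took between 4.84% and 6.12% of all counts of a mouse. It was measured at 59080, 64340, 47340 and 60690 CPM in WTOld replicates 1 to 4 and at 55980, 47650, 53620 and 53930 CPM in C2-/-Old. The genotypes overlapped, since WTOld replicate 3 lay below all C2-/-Old mice and the other 3 WTOld mice above all of them. The means were 57860 ± 7351 CPM (SD, n = 4) and 52790 ± 3587 CPM (SD, n = 4), and the log2 fold change was −0.13 with a 95% interval from −0.44 to 0.18 (edgeR, adjusted p = 0.970). Relative to the muscle creatine kinase gene *Ckm*, *Acta1* counts stood at 2.36 to 2.79 in all mice, with the highest ratio in WTOld replicate 2.

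*Actc1* (gene ID 11464, chromosome 2, 114047282 to 114053863, minus strand, 7 exons) encodes cardiac alpha-actin. Its lowest values, 8.74, 15.0 and 15.3 CPM, were those of 3 WTOld mice, but WTOld replicate 1 reached 38.3 CPM, and C2-/-Old mice had 45.3, 30.5, 49.2 and 23.4 CPM. Thus 2 C2-/-Old mice lay above the highest WTOld mouse, and 3 WTOld mice lay below the lowest C2-/-Old mouse. The log2 fold change was 0.94 (SE 0.41, 95% interval 0.04 to 1.84), which did not pass the adjusted threshold (edgeR, adjusted p = 0.92). Over 17 alternative analyses it lay between 0.70 and 1.51, always higher in C2-/-Old, with adjusted p from 0.544 to 1. Without WTOld replicate 1 it was 1.51, and without WTOld replicate 3 it was 0.70.

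Because a ratio within 1 library does not depend on its scaling, *Actc1* was also set against *Acta1*. For every 1000 *Acta1* transcripts (TPM), the 4 WTOld mice had 0.658, 0.242, 0.187 and 0.251 *Actc1* transcripts, and the C2-/-Old mice had 0.821, 0.650, 0.930 and 0.440. The ratio spanned 4.97-fold, and WTOld replicate 1 again lay among the C2-/-Old mice. *Acta1* made up 99.0% to 99.3% of the summed TPM of the 5 actins in every mouse. Genes that mark heart muscle, other than *Myh6*, were near or under the level of 3 counts, with *Mybpc3* at 0 in 7 mice, *Nppa* at 0 in all WTOld mice and at most at 0.177 CPM in C2-/-Old, and *Tnni3* at most at 0.108 CPM. The heart list as a whole (5 of its 6 genes were in the table) summed to between 0.474 and 6.40 CPM in WTOld and between 1.04 and 2.69 CPM in C2-/-Old. Most of it was *Myh6*, also a minor myosin of some skeletal muscles, with 6.20, 0.328, 2.90 and 2.75 CPM in WTOld and 2.25, 0.992, 2.33 and 0.762 CPM in C2-/-Old. *Myh6* was thus highest in WTOld replicate 1, the WTOld mouse with the most *Actc1*, and its part in the *Actc1* values was not tested. Of the 5 markers of regenerating muscle, the embryonic and neonatal myosins *Myh3* and *Myh8* had an unadjusted p under 0.05. Both were higher in C2-/-Old, as *Actc1* was, each with an adjusted p of 0.92 (edgeR). Over all tested genes, 3.38% were higher at an unadjusted p under 0.05. *Myog* and *Chrng* had lower estimates (both −0.59) and *Myod1* had 0.08, which was also the median of the list. *Myh3* was highest in C2-/-Old replicate 3 (8.77 CPM), the mouse with the most *Actc1*, and next in C2-/-Old replicate 4 (3.08 CPM), the C2-/-Old mouse with the least. The list summed to 42.6 to 176.7 CPM in WTOld and 60.3 to 138.6 CPM in C2-/-Old, most of it *Myod1*. Its highest sum was in WTOld replicate 2, where *Actc1* was low and *Myod1* alone had 154.7 CPM. In that mouse *Myog* (16.7 CPM) and *Chrng* (2.12 CPM) were also highest, whereas *Myh3* and *Myh8* had only 1.60 and 1.59 CPM. The part of the list in the *Actc1* values was not tested.

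*Acta2* (gene ID 11475, chromosome 19, 34240336 to 34255585, minus strand, 9 exons) encodes the alpha-actin of vascular smooth muscle, pericytes and myofibroblasts. Its values were 82.5, 58.2, 61.1 and 70.5 CPM in WTOld and 111.1, 67.5, 69.4 and 75.1 CPM in C2-/-Old, and replicate 1 was the highest of each genotype. The genotypes overlapped, and the log2 fold change was 0.25 (95% interval −0.16 to 0.65, edgeR, adjusted p = 0.968). Smooth muscle markers, 6 of 6 tested, summed to 132.7 to 215.8 CPM in WTOld and 182.9 to 206.9 CPM in C2-/-Old. Pericyte markers, 3 of 3 tested, summed to 123.5 to 227.6 CPM in WTOld and 209.8 to 247.7 CPM in C2-/-Old, most of it *Rgs5*. *Cspg4* did not overlap between genotypes (4.30 to 9.33 CPM in WTOld and 12.2 to 13.2 CPM in C2-/-Old). Over all tested genes, 2.03% were higher in C2-/-Old without overlap. *Cspg4* and *Pdgfrb* had an unadjusted p under 0.05, both higher in C2-/-Old, against 3.38% of all tested genes (edgeR, adjusted p = 0.73 and 0.92). The part of the smooth muscle and pericyte markers in the *Acta2* values was not tested.

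The cytoplasmic actins form the cytoskeleton of all cells of the muscle. *Actb* (chromosome 5, 142903115 to 142906754, minus strand) had 269, 316.7, 262.7 and 320.9 CPM in WTOld and 276.3, 276, 233.4 and 329.1 CPM in C2-/-Old. *Actg1* (chromosome 11, 120345687 to 120348495, minus strand) had 246.4, 218.5, 209.4 and 262.5 CPM in WTOld and 247.8, 225.6, 167.8 and 269.8 CPM in C2-/-Old. Both genes were lowest in C2-/-Old replicate 3 and highest in C2-/-Old replicate 4, so that the extremes of both lay within 1 genotype. The log2 fold change of *Actb* was −0.07 (95% interval −0.36 to 0.22) and that of *Actg1* −0.04 (−0.38 to 0.30). The deviations of *Actb* and *Actg1* from their genotype means went together over the 8 mice with r = 0.77, the highest of all pairs of members, which is given as a description of libraries that share depth and cell content. Together the cytoplasmic actins amounted to 5.69 to 8.44 transcripts per 1000 transcripts of the sarcomeric actins (TPM), again with both extremes in C2-/-Old.

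*Neb* (gene ID 17996, chromosome 2, 52131150 to 52338798, minus strand) encodes nebulin, the giant protein that runs along the thin filament and sets its minimum length, in a transcript of 22489 bases and 157 exons. WTOld mice split into 2450 and 2586 CPM in replicates 1 and 2 and 6444 and 6280 CPM in replicates 3 and 4, whereas C2-/-Old mice had 3900, 5609, 6291 and 5600 CPM. The lowest and the highest values were thus both WTOld. The means were 4440 ± 2221 CPM (SD, n = 4) and 5350 ± 1019 CPM (SD, n = 4), and the log2 fold change was 0.27 with an interval from −0.45 to 0.99 (edgeR, adjusted p = 0.976), too wide to tell a difference of 1.5-fold from none.

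The *Neb* values moved with those of other long transcripts. Over 226 genes with a transcript above 10000 bases and at least 100 counts in every mouse, the median log2 deviation from the mean of all mice was −0.26, −0.46, 0.32 and 0.03 in WTOld and −0.06, 0.15, 0.08 and 0.24 in C2-/-Old. Over 1636 genes with a transcript under 2000 bases it was 0.12, 0.08, −0.08 and −0.16 in WTOld and 0.12, −0.03, −0.02 and −0.05 in C2-/-Old. Long transcripts were therefore lowest in WTOld replicates 2 and 1, the mice with the least *Neb*. *Neb* itself was then left out of the long genes, and its log2 CPM and their level were both taken as deviations from the genotype means. These deviations went together with Pearson r = 0.877 and Spearman rho = 0.81 over 8 mice. Without the 2 libraries whose deviations in level lay farthest from the median deviation, r was 0.841. These values are a description across libraries that share depth. *Ttn* and *Ryr1*, long transcripts of titin and the ryanodine receptor, had the same low pair, with *Ttn* at 2422 and 1501 CPM in WTOld replicates 1 and 2 and at 3046 to 4980 CPM in the other mice. Relative to *Ryr1*, *Neb* counts spanned only 1.06 to 1.42 over all mice, against a 2.63-fold span of *Neb* itself, and the genotypes overlapped. With the level of long transcripts as a covariate, chosen after the *Neb* counts were seen, the log2 fold change of *Neb* was −0.0082 (SE 0.20).

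In the same deviations from the genotype means, the short *Acta1* transcript (1446 bases) ran the other way, with r = −0.797. Without the same 2 libraries, WTOld replicates 2 and 3, its r was only −0.238. The deviations of *Actc1* (1473 bases) had r = −0.656, and −0.872 without these 2 libraries. Such deviations leave out the difference between genotypes, so these r values do not describe the CPM of *Actc1* across all libraries. WTOld replicate 2, with the lowest level of long transcripts, had only 15.3 CPM of *Actc1*. With the covariate, the log2 fold change of *Actc1* was 1.41 (SE 0.36, edgeR, adjusted p = 0.677). The ratio of *Neb* per 1000 *Acta1* (TPM) ranged from 2.51 in WTOld replicate 2 to 8.40 in WTOld replicate 3, and all 4 C2-/-Old mice lay in between at 4.32 to 7.31. The paper states that RNA was checked by electrophoresis and that only samples within a set range of RNA integrity were sequenced. Fragmentation and other aspects of RNA quality in these libraries were not tested here.

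**Figure D3:**
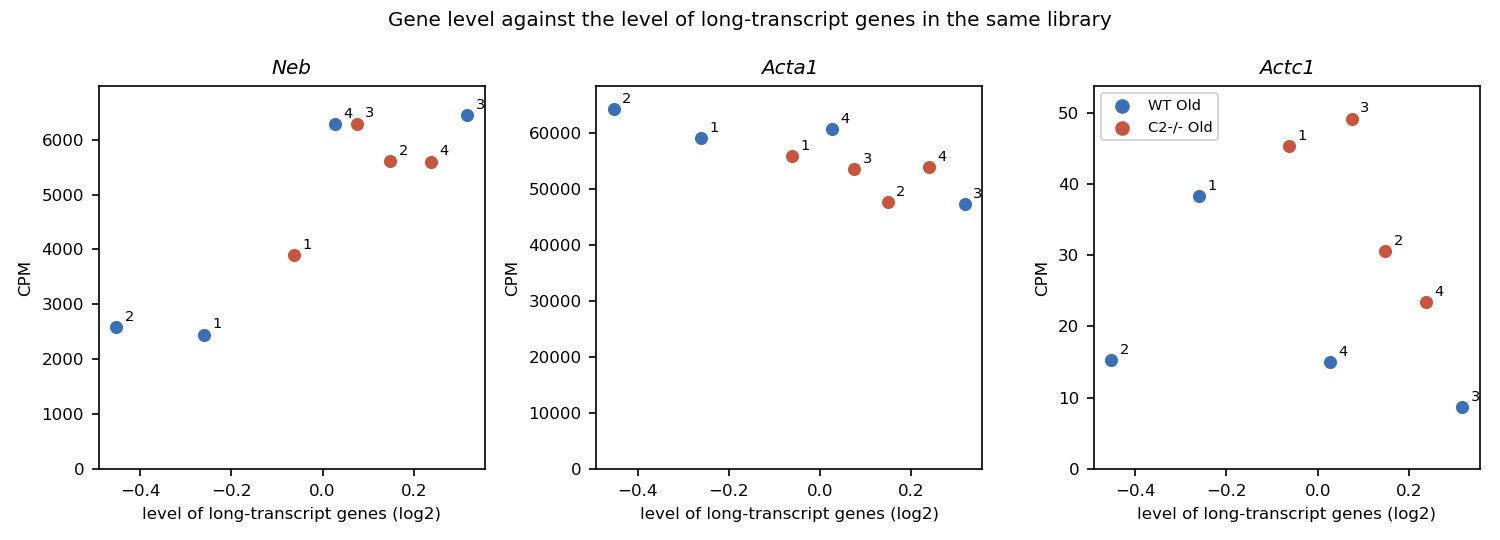
CPM of *Neb*, *Acta1* and *Actc1* in each library against the median log2 level of genes with transcripts above 10000 bases (without *Neb*), with points numbered by replicate, WTOld in blue and C2-/-Old in red. *Neb* increases along the axis from 2450 and 2586 CPM in WTOld replicates 1 and 2 to 6444 CPM in WTOld replicate 3, whereas *Acta1* is lowest in that mouse. The r values given for these genes were computed on deviations from the genotype means and not on the values plotted here.

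The leiomodins differed from each other in their spread. *Lmod2* (chromosome 6, 24597771 to 24605414, plus strand), the main leiomodin of the heart and also present in skeletal muscle, had 63.9, 184.9, 54.8 and 59.5 CPM in WTOld and 61.8, 87.5, 57.9 and 57.8 CPM in C2-/-Old. All mice but WTOld replicate 2 and C2-/-Old replicate 2 lay between 54.8 and 63.9 CPM. The log2 fold change of −0.46 (95% interval −1.27 to 0.36, edgeR, adjusted p = 0.968) rested on WTOld replicate 2, and without this mouse it was 0.16. The genes whose deviations from the genotype means were most like those of *Lmod2* were *Xbp1* (r = 0.996 over 8 mice), *Rras* (0.995) and *Pus3* (0.993). *Xbp1*, a transcription factor of the unfolded protein response, was at 179.1 CPM in WTOld replicate 2, 101.7 CPM in C2-/-Old replicate 2 and 65.1 to 83.1 CPM in the other mice. These 2 mice were also among the 3 with high immediate early genes, but the mouse with the most of them, WTOld replicate 4, had only 59.5 CPM of *Lmod2*, and a shared origin of these values was not tested.

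*Lmod3* (chromosome 6, 97238528 to 97253101, minus strand), the leiomodin whose loss causes nemaline myopathy, had 120.6, 118, 135.7 and 158.8 CPM in WTOld and 164, 164.2, 156.2 and 95.3 CPM in C2-/-Old. Of the C2-/-Old mice, 2 lay above all WTOld mice and 1, replicate 4, below all of them. The log2 fold change was 0.12 (95% interval −0.28 to 0.52, edgeR, adjusted p = 0.983). The ratio of *Lmod2* to *Lmod3* (TPM) was 1.73 in WTOld replicate 2 and between 0.41 and 0.69 in the other 7 mice, so that *Lmod3* was the more abundant leiomodin in all mice but 1.

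The tropomodulins were the most even of the length regulators, with highest over lowest CPM of 1.42 for *Tmod1* and 1.37 for *Tmod4*, against 1.72 for *Lmod3* and more for the others. *Tmod1* (chromosome 4, 46038940 to 46116032, plus strand), which caps thin filaments in heart and skeletal muscle, had 345, 408.3, 383 and 462.2 CPM in WTOld and 404.7, 418.7, 489.7 and 395.5 CPM in C2-/-Old. *Tmod4* (chromosome 3, 95111042 to 95129208, plus strand), the tropomodulin of fast skeletal muscle, had 333.5, 318.1, 282 and 385.6 CPM in WTOld and 312.8, 312.2, 381.9 and 318.3 CPM in C2-/-Old. The genotypes overlapped for both. The log2 fold change was 0.10 (95% interval −0.18 to 0.37) for *Tmod1* and 0.01 (−0.27 to 0.29) for *Tmod4*. The intervals of both left out a 1.5-fold difference in either direction, as did those of *Acta1*, *Actb*, *Actg1* and *Lmod3*. The ratio of *Tmod1* to *Tmod4* (TPM) stayed within 0.458 to 0.580, and deviations of the pair went together with r = 0.708 over 8 mice. In the intervals of the deposited table, *Tmod1* overlaps *Tstd2* and other genes and *Tmod4* overlaps *Vps72*. Strand-specific counting is not stated, so reads of the overlapping stretches may be shared.

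For the 3 members with the smallest unadjusted p, the genes with the most similar deviations over the 8 mice were also listed. Those of *Actc1* included *2700097O09Rik* (r = 0.998) and *Med28* (0.987). Those of *Acta2* were *Ccnf* (0.974), *Ube2s* (0.969) and *Myl9* (0.966), the last a regulatory light chain of smooth muscle and non-muscle myosin. They were picked as the highest among all tested genes, so their size is not a finding.

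Another 32 genes of thin filament assembly and turnover were all tested, including capping proteins, cofilins, profilins, thymosins, Kelch proteins and the SRF cofactors. Their estimates were higher in C2-/-Old for 19 and lower for 13, and the median of the log2 fold changes was 0.06. Before adjustment, 4 of 32 (12.5%) had a p under 0.05, all higher in C2-/-Old, against 5.29% of all tested genes in either direction and 3.38% higher, and none passed the adjusted threshold (smallest adjusted p = 0.640, edgeR). The list was described by its counts only.

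*Gsn*, gelsolin, which severs and caps actin filaments, had 349, 409.1, 447.9 and 414.9 CPM in WTOld and 457.9, 585.1, 555.9 and 621.9 CPM in C2-/-Old, with no overlap (2.03% of all genes were higher in C2-/-Old without overlap) and a log2 fold change of 0.45 (SE 0.13, edgeR, adjusted p = 0.640). *Actg2*, the enteric smooth muscle actin, did not overlap either, but rested on 4 to 10 counts per mouse in WTOld and 14 to 23 in C2-/-Old (log2 fold change 1.35, SE 0.41). The actin monomer-binding genes *Pfn2* and *Tmsb10* had log2 fold changes of 0.43 and 0.58, with genotypes that overlapped. Fibroblast markers (4 of 4 tested) did not overlap between genotypes as a sum, at 270.7 to 364.5 CPM in WTOld and 399.3 to 493.6 CPM in C2-/-Old. Of these markers, *Col1a1* and *Dcn* were higher at an unadjusted p under 0.05, against 3.38% of all tested genes. The part of the fibroblast markers in the *Gsn* values was not tested. In the other direction, the genes with the smallest p were *Lmod1*, the smooth muscle leiomodin, with a log2 fold change of −0.35 (95% interval −0.77 to 0.07), and *Srf*, with −0.18 (−0.43 to 0.07). *Srf* was at 198.3 to 246.3 CPM in WTOld and 171.7 to 201.7 CPM in C2-/-Old, and the genotypes overlapped.

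**Figure D4:**
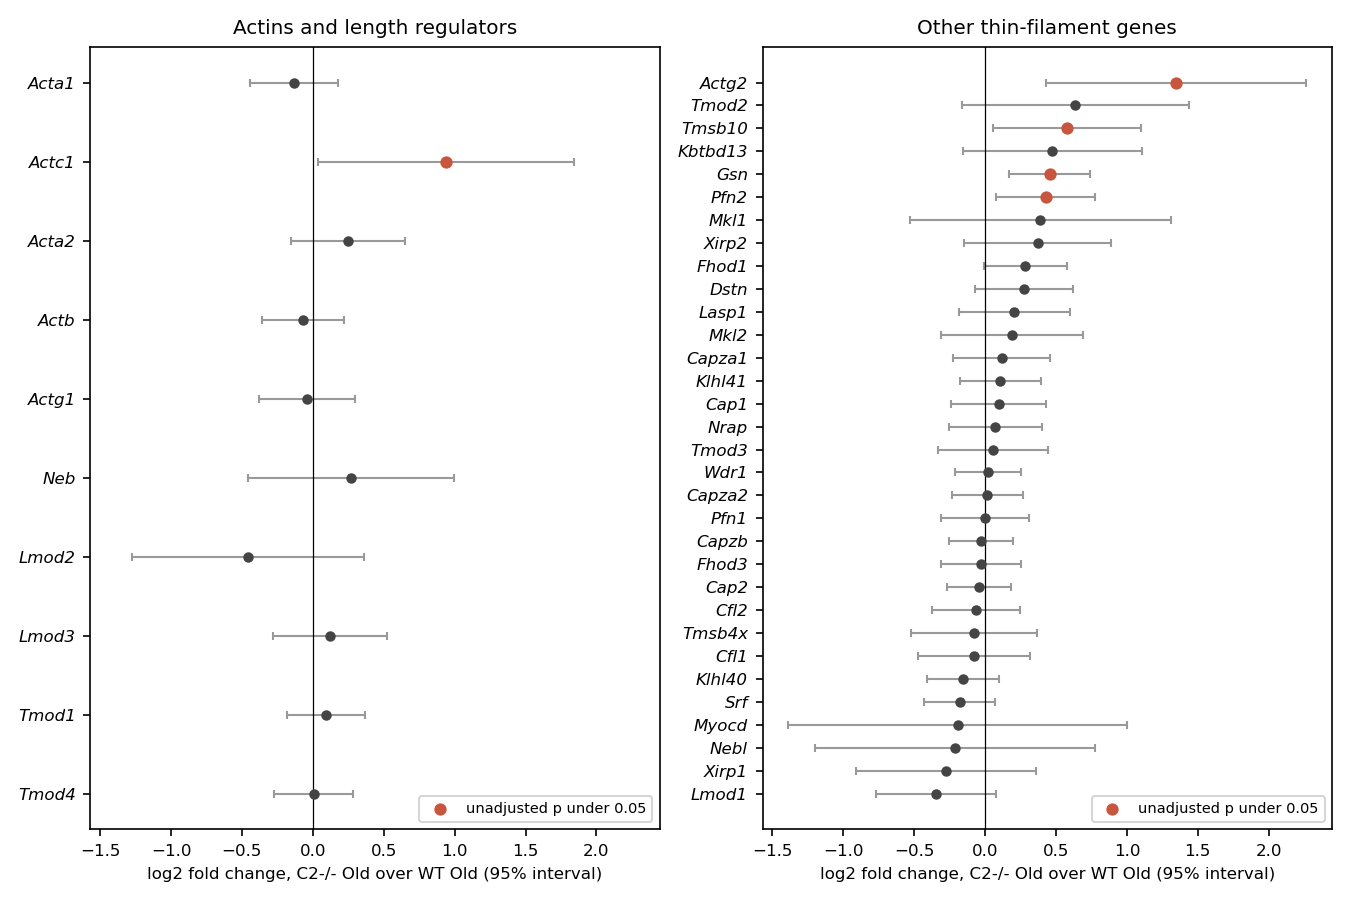
Log2 fold change of C2-/-Old over WTOld with its 95% interval (edgeR, n = 4 mice per genotype) for the 10 actin and length regulator genes (left) and 32 other thin filament genes (right), with red points for an unadjusted p under 0.05. Among the 10 genes, only the interval of *Actc1* (0.04 to 1.84) leaves out 0, and *Lmod2* and *Neb* have the other wide intervals.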

How the data were processed

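RNA-seq of 8 TA muscles (4 per genotype, 1 library per mouse) was analysed. The age of 22 months is that of the age labels and the dissection protocol, and the growth protocol in the labels states another age, 2 months. The authors deposited expected counts per gene, without normalization, and TPM, which scale them by transcript length and depth. Per the labels and methods, polyadenylated RNA was sequenced on DNA nanoballs and aligned to GRCm38.p6, with HISAT and featureCounts in the methods and HISAT, Bowtie2 and DESeq2 in the submitters' processing notes. Since 5.5% to 6.53% of the count values were not whole, counts were rounded for the tests. The authors' fold changes, p-values and q-values, and 8 further columns of values per mouse, were not used, and 1 row without a gene ID was left out of 16687. Gene symbols of 25 rows were restored from their gene IDs.

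Genes were tested by quasi-likelihood in edgeR 4.0.16 (R 4.3.3) with TMM factors, the default filter, all 8 libraries and Benjamini-Hochberg adjustment over 12542 genes. A call was an adjusted p under 0.05 above 1.5-fold. CPM are the expected counts before rounding, scaled to the TMM-adjusted total of the rounded counts. Intervals are 95%. The methods name limma-voom, which was an alternative (limma 3.58.1), as were DESeq2 1.42.0, other scalings, filters and cutoffs, the replicate number as a block, leaving out each mouse and, added after the data were seen, the level of long transcripts as a covariate. The procedure was tested on simulated data. Members, gene lists and the naming rule were chosen with earlier results of these data known. Genes named are all members, *Mybpc2*, other thin filament genes with an unadjusted p under 0.05 or otherwise the 2 with the smallest p in each direction, the 3 genes most similar to each of 3 members, and defining markers. *Ttn* and *Ryr1* were chosen after their values were seen. Of the similar genes, 1 is not reported here. Nothing in the labels says that mice came from separate litters or batches, so p-values measure the spread between these mice. Coding sequences and lengths came from GENCODE vM21 and promoters from RefSeq, both on GRCm38. Python 3.11.15, pandas 2.3.3 and scipy 1.17.1 were used.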

Additional observations from a re-analysis of the deposited data

Results flagged for a closer look

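In 4 of 20 groups of 4 mice (10 genes in each genotype) the highest or lowest mouse lay farther from its nearest neighbour, relative to the range of its group, than the 95% critical value for 4 samples, a gap that chance gives in about 1 of 20 groups. *Lmod2* was far above the other mice of its genotype in WTOld replicate 2 (184.9 CPM) and in C2-/-Old replicate 2 (87.5 CPM). *Lmod3* was far below in C2-/-Old replicate 4 (95.3 CPM), and *Tmod4* far above in C2-/-Old replicate 3 (381.9 CPM). The same gap was found for *Mybpc2* in C2-/-Old replicate 3 (38.3 CPM), where the other C2-/-Old mice had 3.85 to 4.35 CPM.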

How the results depend on the processing

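No member passed the adjusted threshold in any of 17 alternative analyses. The number of genes called over the whole table was 4 and became 38 with DESeq2, and 4 to 7 when each mouse was left out, the highest without WTOld replicate 2. The number of members with an unadjusted p under 0.05 was 0 or 1 when each mouse was left out, and *Actc1* lost it without WTOld replicate 2, 3 or 4 or C2-/-Old replicate 1 or 3. With each mouse left out, log2 fold changes ranged from −0.62 to 0.16 for *Lmod2*, −0.069 to 0.10 for *Tmod4*, −0.13 to 0.081 for *Actg1* and −0.16 to 0.0068 for *Actb*, each changing sign, while *Acta1*, *Actc1*, *Acta2*, *Neb*, *Lmod3* and *Tmod1* kept theirs. The sign also turned with sample quality weights for *Lmod2* (0.090) and *Tmod4* (−0.041), and with the covariate of long transcripts for *Neb* (−0.0082) and *Lmod2* (0.047); the cause was not tested. No scaling moved the median of all genes by over 0.1.

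Both genotypes carry replicate numbers 1 to 4. Over all tested genes, the deviations of same-numbered mice had r = 0.267, 0.042, −0.051 and 0.021. The best match of WTOld replicate 1 was C2-/-Old replicate 1, but replicates 2, 3 and 4 did not match best by number. These values cannot tell whether the numbers pair the mice, because pairing could touch only some genes. With the replicate number as a block, 1 member, *Actc1*, had an unadjusted p under 0.05, with a log2 fold change of 1.07 and an adjusted p of 0.765 (edgeR), and *Neb* had 0.40. The block lowered the SE of *Lmod2* (0.37 to 0.20), *Acta2* (0.18 to 0.11) and *Neb* (0.33 to 0.22), and also of *Actc1*, *Actb* and *Actg1*. It raised the SE of *Acta1*, *Lmod3*, *Tmod1* and *Tmod4*. At this depth all members were far above the level of 3 counts, so the number of mice, not counting, limits the intervals.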
